A study of Mus musculus with 14 samples.

Results

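Keratin transcripts were followed in mouse embryonic stem cells grown in media that hold them nearer to the naive or to the primed state of pluripotency. The 6 genes described here are Krt7 and Krt8, which encode type II keratins, and Krt17, Krt18, Krt19 and Krt42, which encode type I keratins. They are 6 of the 54 keratin genes found in the files and of 37991 genes in all. They were picked as a named family, with Krt8 and Krt42 selected on large changes of opposite direction in the primed media, so the values in both primed media (L-Pro/LIF, F/A) against FBS/LIF are given as a description with no test.

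The cells were C57BL/6 embryonic stem cells carrying 2 reporters, mCherry for the mir-290 cluster and eGFP for the mir-302 cluster, and all groups carry both. In the replicated experiment, cells seeded sparsely were cultured for 5 days in 5 media, and total RNA was taken with an RNeasy kit for 2 libraries per medium. The FBS/LIF medium contains serum with leukemia inhibitory factor (LIF), which keeps stem cells dividing undifferentiated. To it were added 500 µM vitamin C (VitC/LIF), L-proline in an amount the labels leave out (L-Pro/LIF), or the MEK and GSK3 kinase inhibitors known as 2i (2i/LIF). The F/A cells grew in N2B27 supplemented with 20 ng/ml of activin A plus 12 ng/ml of bFGF, and the labels name no LIF there. A separate series of 4 single libraries, extracted with Trizol from cells labelled positive for both reporters, held a day 0 library from serum/LIF culture containing 100 µM vitamin C, an L-Pro library after 5 days of 1 mM L-proline in serum/LIF, and F/A libraries at day 3 and day 5 of N2B27 with 20 ng/ml of activin A and bFGF of unstated amount. The labels name no sorting step and do not say whether the replicates were separate cultures, so p-values may measure technical spread only.

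The replicated libraries held 17778399 to 26354444 mapped fragments, except F/A replicate 1 with 6937945, and the 4 single libraries held 33162689 to 39711061 counts. All 8 pluripotency markers examined, Pou5f1 and Sox2 among them, reached at least 1 CPM (read counts scaled to library size) on average in each of the 5 media. Their summed level was 4330 to 5380 CPM in FBS/LIF, VitC/LIF and 2i/LIF, 2540 and 2670 CPM in L-Pro/LIF, and 1110 and 1400 CPM in F/A.

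Keratins are the intermediate filament proteins of epithelial cells. A filament is built from pairs of 1 type I and 1 type II chain, and a chain left without a partner is usually degraded. Krt8 and Krt18 form the pair of simple, single-layered epithelia and are the first keratins to appear in the embryo, in the outer cell layer that becomes trophectoderm. Krt19 and Krt7 belong to simple epithelia and ducts as well, whereas Krt17 is best known from skin appendages and injured epidermis. Krt42 is a type I keratin whose human counterpart is a pseudogene.

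The start-site regions of Krt8, Krt18 and Krt42 are shown because Krt8 and Krt18 lie side by side on chromosome 15 and moved together, while Krt42, on chromosome 11 next to Krt17, moved the other way in the primed media. RefSeq windows (GRCm38.p6, a later build than the mm9 of the files) matched 4 of the 6 genes. Each sequence runs 5′ to 3′ on the gene's strand, from 250 bases before the annotated start site to 30 bases after it. Capitals mark matches to 5 motifs searched on both strands over 300 bases: a TATA box (TATAAA), a GC box (GGGCGG), the AP-1 site TGANTCA, the CAGGTG form of the E-box, and the TEAD site GGAATG.
Krt8, chr15:102004313-102004592, minus strand: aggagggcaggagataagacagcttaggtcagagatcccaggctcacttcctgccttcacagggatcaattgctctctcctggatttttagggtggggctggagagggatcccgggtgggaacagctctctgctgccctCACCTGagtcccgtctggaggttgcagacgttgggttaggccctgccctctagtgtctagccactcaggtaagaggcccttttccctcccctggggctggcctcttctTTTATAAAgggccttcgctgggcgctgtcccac
Krt18, chr15:102027966-102028245, plus strand: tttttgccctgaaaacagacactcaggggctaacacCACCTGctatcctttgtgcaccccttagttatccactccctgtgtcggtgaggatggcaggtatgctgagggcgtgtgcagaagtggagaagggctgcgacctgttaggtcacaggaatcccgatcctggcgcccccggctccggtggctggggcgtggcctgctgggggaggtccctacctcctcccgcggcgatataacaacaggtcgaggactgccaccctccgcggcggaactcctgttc
Krt42, chr11:100269922-100270201, minus strand: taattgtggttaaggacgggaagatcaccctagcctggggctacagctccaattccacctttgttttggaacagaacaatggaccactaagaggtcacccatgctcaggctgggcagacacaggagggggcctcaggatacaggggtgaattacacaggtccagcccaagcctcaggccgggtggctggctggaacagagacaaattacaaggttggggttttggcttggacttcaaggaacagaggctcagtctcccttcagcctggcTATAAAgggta

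The Krt8 window holds TATAAA, overlapped by its reverse complement TTTATA, across the annotated start site, and CACCTG, the reverse complement of CAGGTG, 111 bases before it. The Krt18 window holds CACCTG 214 bases before the start and no TATAAA. The Krt42 window holds TATAAA at 20 bases after the annotated start. The Krt7 window, not printed, holds GC boxes at 4 places and CACCTG at 44 bases before the start. Of 32851 windows of the same length, 13.6% hold TATAAA, 35.7% GGGCGG, 7.81% TGANTCA, 20.2% CAGGTG and 14.7% GGAATG. The AP-1 and TEAD letters were not in these 4 windows. A match is a description of letters and no evidence of binding.

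All 6 genes were detected in FBS/LIF and passed the filter on low counts. Krt8 stood at 126 and 111 CPM in the 2 libraries (mean 118 ± 10.5, SD, n = 2) and its partner Krt18 at 56.2 and 52.1 CPM. Krt42 was at 36.3 and 32.1 CPM, and Krt17 at 34.3 and 30.0 CPM. Krt19 reached 12.3 and 12.6 CPM and Krt7 3.61 and 3.56 CPM. CPM here are scaled by the trimmed mean of M-values (TMM) and are not corrected for gene length, so they compare 1 gene between libraries. These are bulk samples, in which fewer cells that express a keratin and less keratin RNA per cell cannot be told apart.

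In both primed media the simple-epithelial keratins Krt8, Krt18 and Krt19 lay above FBS/LIF, and Krt17 and Krt42 lay below it. Krt8 was at 511 and 495 CPM in L-Pro/LIF and at 283 and 407 CPM in F/A, so all 4 primed libraries stood above both FBS/LIF libraries. The fitted log2 fold change of Krt8 against FBS/LIF was 2.09 with L-Pro/LIF and 1.55 with F/A. Krt18 was at 200 and 213 CPM in L-Pro/LIF and at 84.8 and 126 CPM in F/A, with log2 fold changes of 1.93 and 0.96. Krt19 was at 57.6 and 62.9 CPM in L-Pro/LIF and at 49.6 and 70.6 CPM in F/A, and its log2 fold change was 2.27 in both. The 3 genes were each higher in F/A replicate 2 than in F/A replicate 1, the library of lowest depth. Without F/A replicate 1 the F/A log2 fold changes were 1.78 for Krt8, 1.21 for Krt18 and 2.49 for Krt19, and without F/A replicate 2 they were 1.17, 0.55 and 1.90.

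Krt42 went the other way. It was at 1.24 and 0.988 CPM in L-Pro/LIF, from 27 and 25 estimated counts, which is 30.7-fold lower than in FBS/LIF. In F/A it had no count in either library, at least 318-fold lower than in FBS/LIF when 3 counts over the 2 libraries are taken as the limit. Krt17 was at 2.25 and 2.53 CPM in L-Pro/LIF and at 0.254 and 0.6 CPM in F/A, the last 2 values resting on 2 and 12 counts. Its log2 fold changes were -3.74 and -6.03, and the F/A value was -7.04 without F/A replicate 2. For both genes the 4 primed libraries lay below all 6 libraries of the other media.

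Krt7, the other type II gene, lay on opposite sides of FBS/LIF in the primed media. It was at 10.0 and 11.0 CPM in L-Pro/LIF, above FBS/LIF, and at 1.78 and 1.70 CPM in F/A, below FBS/LIF. The log2 fold changes were 1.55 and -1.05. Counted from fragments that hit only this gene they were 1.65 and -1.39. As background, 24.0% of 16033 genes tested passed an adjusted p of 0.05 in L-Pro/LIF against FBS/LIF (13.7% higher, 10.3% lower) and 46.4% did in F/A against FBS/LIF (24.4% higher, 22.0% lower). The members were chosen on these comparisons, so their directions add no count to be read against those shares.

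**Figure D1:**
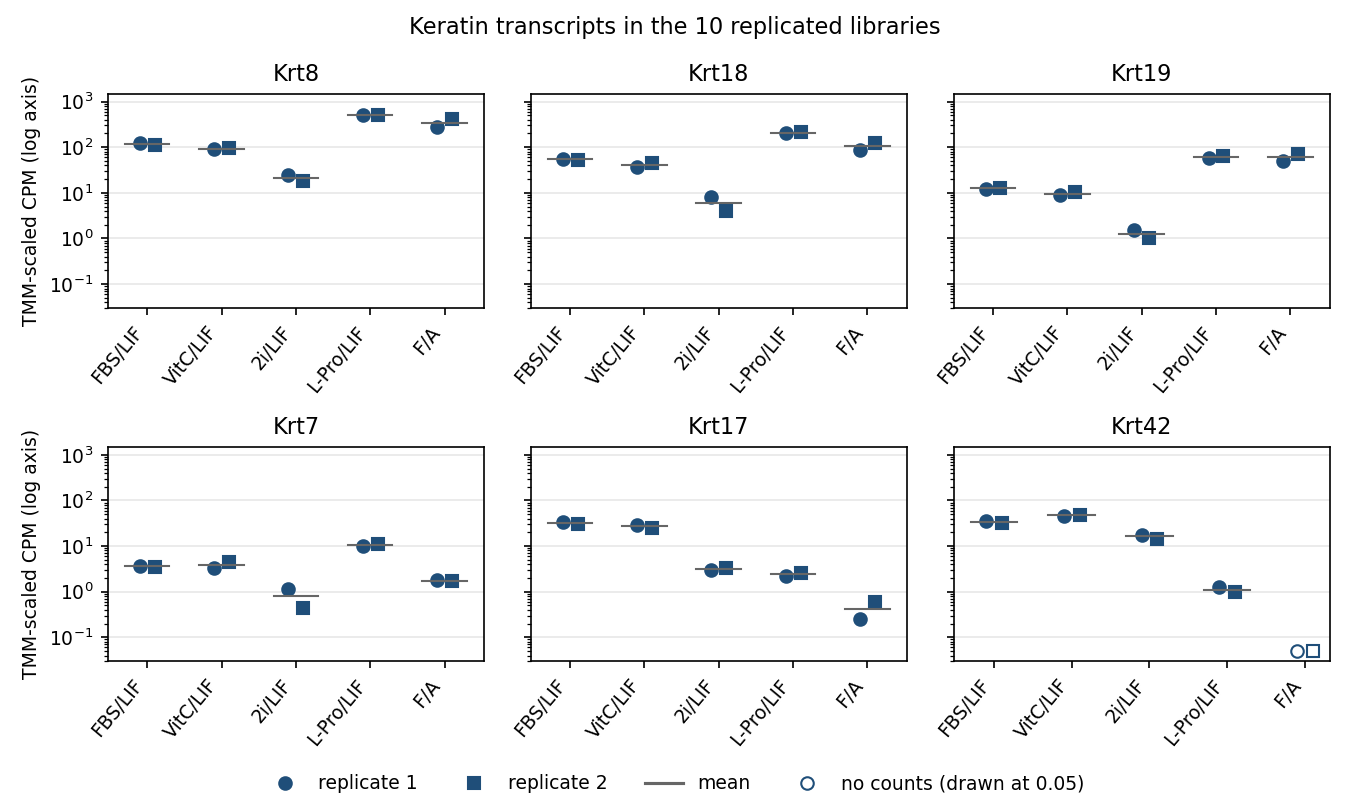
TMM-scaled CPM (log axis) of each keratin in the 10 replicated libraries, by medium; circles are replicate 1, squares replicate 2, lines the mean, and open symbols libraries without a count, drawn at 0.05. Krt8, Krt18 and Krt19 are highest in the 2 primed media and lowest in 2i/LIF, whereas Krt17 and Krt42 are lowest in F/A.

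In 2i/LIF, with MEK and GSK3 inhibited, the whole group was lower. All 6 genes fell against FBS/LIF, where 30.4% of all genes tested were called (12.5% higher, 17.9% lower), and both 2i/LIF libraries lay below both FBS/LIF libraries for each of them, as they did for 37.3% of all genes tested. Krt8 was at 25.2 and 18.0 CPM in 2i/LIF, a log2 fold change of -2.45 (SE 0.21, adjusted p = 7e-05, edgeR's quasi-likelihood test). Krt18 was at 7.95 and 3.98 CPM and changed by -3.18 (SE 0.31, adjusted p = 0.00013). Krt19 fell to 1.54 and 1.01 CPM, 9.78-fold lower (adjusted p = 3e-05), and Krt17 to 3.02 and 3.25 CPM, 10.2-fold lower (adjusted p = 1.8e-05). Krt7 fell to 1.17 and 0.448 CPM, on 22 and 8 counts, with a log2 fold change of -2.13 (SE 0.38, adjusted p = 0.0033).

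Krt42 had the smallest of these changes. It was at 17.9 and 14.6 CPM in 2i/LIF, 2.11-fold lower than in FBS/LIF, with a log2 fold change of -1.07 (SE 0.16, adjusted p = 0.0017). Its 95% interval, -1.44 to -0.71, did not overlap with those of Krt8 (-2.94 to -1.96), Krt17 (-3.86 to -2.85), Krt18 (-3.89 to -2.46) and Krt19 (-3.83 to -2.73), and overlapped with that of Krt7 (-3.00 to -1.26). The difference between genes was not itself tested. The FBS/LIF libraries in this comparison also entered the comparisons on which the members were selected.

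With vitamin C none of the 6 genes passed the test, in a comparison where 0.674% of all genes were called (0.362% higher, 0.312% lower). DESeq2 and limma also called 0 after adjustment. At an unadjusted p under 0.05 edgeR and DESeq2 each counted 1 of the 6 and limma 0. By edgeR that gene was Krt42, at 46.1 and 48.3 CPM in VitC/LIF, with a log2 fold change of 0.46 (95% interval 0.11 to 0.82, adjusted p = 0.28). Krt8, at 91.9 and 95.1 CPM, had a log2 fold change of -0.34 (95% interval -0.80 to 0.12, adjusted p = 0.64). Krt18 was at 37.1 and 46.0 CPM, with an interval of -1.02 to 0.26, and Krt19 at 9.05 and 10.2 CPM, with an interval of -0.83 to 0.08. Krt17 was at 28.5 and 25.3 CPM, with an interval of -0.70 to 0.19. Krt7 was at 3.31 and 4.40 CPM, with an interval of -0.67 to 0.88.

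F/A was then compared with L-Pro/LIF, where 22.0% of all genes were called (11.1% higher, 10.9% lower). Krt8 and Krt42 were selected on their values in these media, so they are described here with no test, and the same libraries entered the choice of the whole group. Of the other 4 genes, 3 were lower in F/A. Krt7 was 6.05-fold lower in F/A, with a log2 fold change of -2.60 (SE 0.37, adjusted p = 0.0031, edgeR). Krt17 was 5.59-fold lower, with a log2 fold change of -2.28 (SE 0.29, adjusted p = 0.0018). Krt42 had no count in F/A and 52 counts in L-Pro/LIF, at least 10.3-fold lower. Krt18 was 1.96-fold lower (log2 fold change -0.97, SE 0.28, adjusted p = 0.04), and this call was lost without F/A replicate 1 (adjusted p = 0.19), without L-Pro/LIF replicate 1 (0.14) or replicate 2 (0.13), and by limma (0.081).

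Krt19 did not pass. It had a log2 fold change of 0.00 (95% interval -0.43 to 0.43, adjusted p = 1), and its libraries overlapped in CPM. In FPKM both F/A libraries (57.5 and 64.3) lay above both L-Pro/LIF libraries (43.9 and 47.6), and limma on FPKM gave 0.41 (adjusted p = 0.31). The effective length assigned to Krt19 was 980 and 1191 bases in F/A and 1324 and 1270 bases in L-Pro/LIF. Krt8 had a log2 fold change of -0.54, and -0.92 without F/A replicate 2, with both F/A libraries below both L-Pro/LIF libraries.

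**Figure D2:**
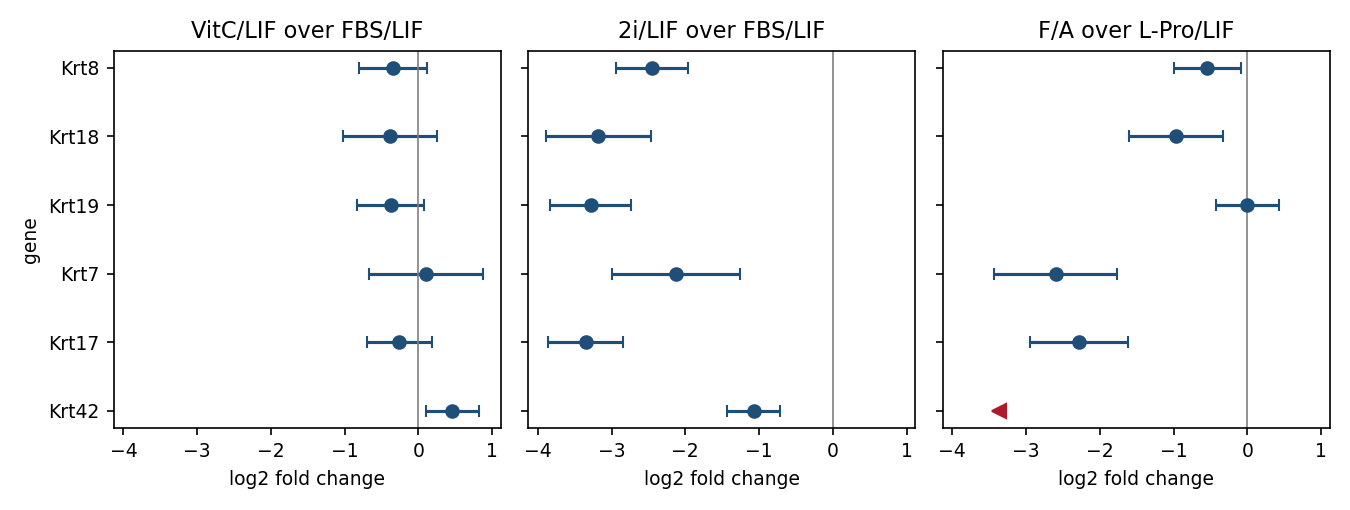
Log2 fold change of each keratin in VitC/LIF and 2i/LIF against FBS/LIF and in F/A against L-Pro/LIF, where Krt8 and Krt42 are a description, with 95% intervals from the edgeR fit; the triangle for Krt42 is a bound from 3 counts, since F/A had none. All 6 intervals lie below 0 for 2i/LIF, from -3.35 for Krt17 to -1.07 for Krt42, while in VitC/LIF 5 of the 6 include 0.

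Ordered by level, Krt8 and Krt18 ran L-Pro/LIF, F/A, FBS/LIF, VitC/LIF, 2i/LIF, with no overlap between neighbours in that order. Krt19 had the same order, except that L-Pro/LIF and F/A overlapped in CPM. Krt42 ran VitC/LIF, FBS/LIF, 2i/LIF, L-Pro/LIF, F/A and Krt17 ran FBS/LIF, VitC/LIF, 2i/LIF, L-Pro/LIF, F/A, again with no overlap between neighbours. Krt7 ran L-Pro/LIF, VitC/LIF, FBS/LIF, F/A, 2i/LIF, and only VitC/LIF and FBS/LIF overlapped. With 2 libraries per medium, separation of neighbours is a description and not a test: in the 5 comparisons made here, 42.9% to 72.0% of all genes tested had no overlap between the 2 media.

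Levels per length, in FPKM (fragments scaled by gene length and by library size), allow the chains to be compared with each other. Krt8 supplied 97.5% to 99.6% of type II keratin FPKM in every library, and the 6 genes together supplied 94.1% to 99.7% of all keratin FPKM. The type I side changed its make-up between media. In FBS/LIF it was 39.9% and 40.8% Krt18, 29.2% and 27.6% Krt42, 21.5% and 20.8% Krt17, and 7.59% and 8.63% Krt19. In 2i/LIF Krt42 was the leading type I transcript, at 59.1% and 63.3%, with Krt18 at 21.8% and 14.5%. In L-Pro/LIF Krt18 made up 78.0% and 76.5% and Krt19 19.6% and 21.2%. In F/A the type I transcripts were 58.8% and 63.2% Krt18 and 40.4% and 35.7% Krt19.

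The ratio of summed type I to type II FPKM was 1.49 and 1.52 in FBS/LIF, 1.79 and 1.82 in VitC/LIF and 1.91 and 2.01 in 2i/LIF. It was 0.671 and 0.741 in L-Pro/LIF and 0.685 and 0.652 in F/A. Type I transcripts thus exceeded type II transcripts in the 6 libraries of the first 3 media and lay below them in the 4 primed libraries. Within the Krt8 and Krt18 pair, the ratio of Krt8 to Krt18 FPKM was 1.55 to 1.89 in FBS/LIF, VitC/LIF and L-Pro/LIF, 2.47 and 2.42 in F/A, and 2.34 and 3.36 in 2i/LIF, where Krt18 rested on 150 and 71 counts. The ratio of Krt19 to Krt18 was 0.687 and 0.565 in F/A and between 0.190 and 0.277 in the other 8 libraries.

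**Figure D3:**
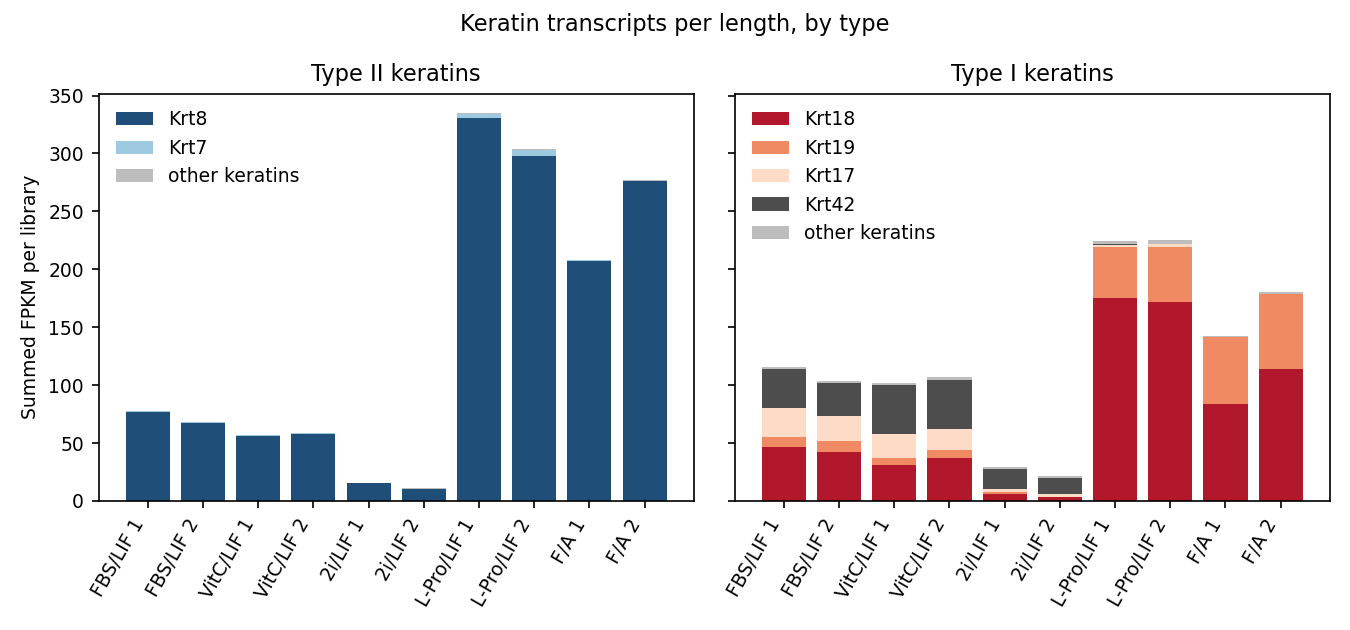
Summed FPKM of type II keratins (left) and type I keratins (right) in each of the 10 libraries, with bars stacked by gene and drawn from 0. Type II is almost all Krt8. On the type I side the Krt42 part of FBS/LIF, VitC/LIF and 2i/LIF is absent or thin in the primed media, where Krt18 and Krt19 fill the bars. The Krt17 part of FBS/LIF and VitC/LIF is thin in the primed media and also in 2i/LIF (2.15 and 2.29 FPKM, against 1.74 and 1.81 in L-Pro/LIF).

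Across the 10 libraries, which share media in pairs, log2(CPM + 1) of Krt8 had a Pearson r of 0.986 with Krt18 and 0.992 with Krt19. Krt17 had an r of 0.899 with Krt42, its neighbour on chromosome 11, and Krt8 had an r of -0.687 with Krt42. Krt7 had an r of 0.702 with Krt8 and -0.143 with Krt42. Among 9857 genes with a mean of at least 5 CPM, the 5 with the highest r to Krt8 were Map3k15 (0.995), Tpm1 (0.994), Car2, Tnfrsf12a and Klf6 (0.993 each). Tpm1, a tropomyosin that binds actin, had a mean of 312 CPM in FBS/LIF, 60.2 in 2i/LIF, 991 with L-Pro/LIF and 837 with F/A. The 5 nearest to Krt42 were Rmnd5b, Smarcad1 and Hmces (0.995 each), Cltb and Slc25a12 (0.993 each). Hmces, which shields abasic sites in DNA, had a mean of 161 CPM in FBS/LIF, 197 in VitC/LIF, 86.7 in 2i/LIF, 29.8 with L-Pro/LIF and 19.0 with F/A.

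The 3 nearest genes to each of the others were Nt5dc2, Sfn and Prmt2 for Krt18 (0.991 to 0.993), Pcbp4, Jph1 and Rasef for Krt19 (0.993 to 0.995), Plk3, Enox1 and Ttc37 for Krt17 (0.990 to 0.993), and Lgr4, Kcnk6 and Pkp3 for Krt7 (0.964 to 0.972). Sfn, the 14-3-3 sigma protein of epithelia, had a mean of 136 CPM in FBS/LIF, 26.5 in 2i/LIF, 309 with L-Pro/LIF and 174 with F/A. Pkp3, a plakophilin of desmosomes, had a mean of 10.3 CPM in FBS/LIF, 3.77 in 2i/LIF, 15.5 with L-Pro/LIF and 4.74 with F/A. These r values, over 10 libraries that share 5 media, are a description.

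The other 48 keratin genes in the files were low or without counts. Of these, 16 had no estimated count in any of the 10 libraries, 5 passed the filter on low counts, and 3 reached a mean of 1 CPM in some medium. Krt10, a chain of differentiated epidermis, reached 1.41 CPM in VitC/LIF, Krt13 1.15 CPM in 2i/LIF, and Krt14, of basal epidermis, 1.11 CPM in L-Pro/LIF. Krt13 was lower in L-Pro/LIF than in FBS/LIF, with a mean of 0.0395 against 0.815 CPM (adjusted p = 0.0087), and in F/A, with 0.05 CPM (adjusted p = 0.013). Krt14 was at 0 and 0.2 CPM in F/A and at 0.963 and 1.26 CPM in L-Pro/LIF. It passed the filter on low counts through L-Pro/LIF, where it was highest, so this difference is a description. Krt20 had no count in 2i/LIF and 0.277 and 0.0937 CPM in FBS/LIF (adjusted p = 0.047). These calls lie near the floor: over all 10 libraries Krt20 had 64 estimated counts and Krt13 had 96. For Krt13, unique hits were 68.8% of the estimated counts. No other type II keratin passed the filter.

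Keratin filaments end on desmosomes, the junctions that join epithelial cells, and 9 desmosome genes were tested. In L-Pro/LIF against FBS/LIF 4 rose and 0 fell (all genes: 13.7% higher, 10.3% lower), with a median log2 fold change of 0.82 over the 9 against 0.01 over all genes. Desmoplakin, Dsp, which ties the filaments to the junction, stood at 166 and 221 CPM in L-Pro/LIF against 26.8 and 33.6 CPM in FBS/LIF (log2 fold change 2.68, SE 0.20, adjusted p = 6.2e-05). The desmosomal cadherin Dsc2 rose from 6.52 and 5.30 to 31.9 and 33.7 CPM (log2 fold change 2.47, adjusted p = 3.7e-05). Against FBS/LIF, F/A had 5 desmosome genes that rose and 2 that fell (all genes: 24.4% higher, 22.0% lower), with Dsp at 164 and 137 CPM and Dsc2 at 26.4 and 25.6 CPM.

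In 2i/LIF against FBS/LIF 2 desmosome genes rose and 5 fell, beside 12.5% and 17.9% of all genes. The p53 target Perp, a desmosome protein, fell from 76.7 and 72.9 to 13.1 and 14.2 CPM (-2.45 on the log2 scale, SE 0.12, adjusted p = 4.8e-06), and the plakophilin Pkp2 fell from 61.3 and 55.4 to 17.0 and 16.5 CPM (adjusted p = 1.9e-05). In F/A against L-Pro/LIF 0 rose, and Pkp3 and Jup fell (all genes: 11.1% higher, 10.9% lower). Dsc3 was at 0.127 and 0.05 CPM in F/A and at 1.42 and 1.11 CPM in L-Pro/LIF. It passed the filter on low counts through L-Pro/LIF, where it was highest, so its difference is a description. Plakoglobin, Jup, was at 60.2 and 57.4 CPM in F/A and at 98.5 and 104 CPM in L-Pro/LIF (log2 fold change -0.79, SE 0.09, adjusted p = 0.0011). In VitC/LIF 0 of the 9 were called.

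Of 9 plakin and hemidesmosome genes tested, 2 rose and 0 fell in L-Pro/LIF, 2 rose and 1 fell in F/A, 0 rose and 2 fell in 2i/LIF, and 0 were called in VitC/LIF, all against FBS/LIF. Of all genes, 24.0%, 46.4%, 30.4% and 0.674% were called in these media, so the plakin counts lay near or under the background. Periplakin, Ppl, a linker of keratin filaments, was at 8.14 and 8.16 CPM in FBS/LIF, at 18.9 and 27.7 CPM in L-Pro/LIF (adjusted p = 0.0017), at 16.6 and 18.7 CPM in F/A (adjusted p = 0.0044), and at 0.636 and 0.673 CPM in 2i/LIF (log2 fold change -3.63, adjusted p = 3.7e-05). Envoplakin, Evpl, fell in F/A against both FBS/LIF (log2 fold change -0.88, adjusted p = 0.0068) and L-Pro/LIF (-1.39, adjusted p = 0.0029). Evpl was the single gene of this list called in F/A against L-Pro/LIF.

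Other intermediate filaments did not move as a block. Of 13 tested, 6 rose and 2 fell in L-Pro/LIF, 5 rose and 5 fell in F/A, and 1 rose and 5 fell in 2i/LIF, against FBS/LIF. These are 8, 10 and 6 of 13 called, beside 24.0%, 46.4% and 30.4% of all genes. Vimentin, Vim, the filament of mesenchymal cells, was at 418 and 435 CPM in F/A against 48.2 and 51.8 CPM in FBS/LIF (log2 fold change 3.09, SE 0.13, adjusted p = 1.1e-06) and against 67.3 and 83.4 CPM in L-Pro/LIF (2.50, adjusted p = 1.3e-05). Nestin, Nes, the filament of neural and other progenitors, rose in L-Pro/LIF from 74.4 and 75.6 to 277 and 308 CPM (adjusted p = 0.00015) and fell in 2i/LIF to 16.7 and 18.8 CPM (adjusted p = 7e-05). The nuclear lamin Lmnb1 was not called in L-Pro/LIF (adjusted p = 0.24) or in 2i/LIF (0.55). In VitC/LIF the neurofilament Nefl fell from 71.0 and 59.5 to 24.1 and 26.1 CPM (adjusted p = 0.029), the single call among all lists there, and a call lost when any 1 library of that comparison was left out. Between F/A and L-Pro/LIF, 1 was higher and 5 were lower in F/A, beside 11.1% and 10.9% of all genes.

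Among 17 transcription and splicing regulators of epithelia tested, 2 rose and 5 fell in L-Pro/LIF, 3 rose and 8 fell in F/A, 5 rose and 7 fell in 2i/LIF and 0 were called in VitC/LIF, against FBS/LIF. Over all genes the shares were 13.7% higher and 10.3% lower with L-Pro/LIF, 24.4% and 22.0% with F/A, and 12.5% and 17.9% with 2i/LIF. In F/A against L-Pro/LIF 1 rose and 6 fell (all genes: 11.1% and 10.9%). Klf4, a zinc-finger factor of both naive stem cells and epidermis, fell from 49.6 and 57.1 CPM in FBS/LIF to 5.09 and 4.94 CPM in L-Pro/LIF (adjusted p = 1.4e-05) and 1.14 and 0.6 CPM in F/A (adjusted p = 6.5e-07). Tfap2c, a factor of naive stem cells and trophoblast, fell from 58.7 and 70.5 CPM to 18.2 and 16.4 CPM in L-Pro/LIF (adjusted p = 9.1e-05) and 6.85 and 5.30 CPM in F/A (adjusted p = 2.6e-06). In 2i/LIF the epithelial factor Grhl2 fell from 73.6 and 72.3 to 2.33 and 2.47 CPM (-4.92 on the log2 scale, SE 0.13, adjusted p = 1.3e-06). The epithelial splicing factor Esrp1 fell there from 56.0 and 65.4 to 0.212 and 0.448 CPM (log2 fold change -7.51, SE 0.29, adjusted p = 2.1e-06). Esrp1 was called neither in L-Pro/LIF (log2 fold change 0.17, adjusted p = 0.58) nor in F/A (0.46, adjusted p = 0.076), the media in which Krt8 was highest. Over all lists, 18 of 53 different genes tested were called in F/A against L-Pro/LIF, beside 22.0% of all genes. These 18 include Krt14 and Dsc3, which are given as a description. The count changed when single libraries were left out.

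Markers of other cell types were read in the same libraries, where the background share of calls was 24.0% with L-Pro/LIF and 46.4% with F/A. Counted in either direction, the F/A calls among trophectoderm, fibroblast and epidermis markers lay near this share. Of 10 trophectoderm markers tested, 3 were higher and 2 lower in L-Pro/LIF, and 3 higher and 2 lower in F/A, against FBS/LIF. Their summed level over 12 genes was 88.1 and 101 CPM in FBS/LIF, 64.5 and 72.0 CPM in L-Pro/LIF, and 113 and 105 CPM in F/A, led there by Eomes at 56.6 CPM, and Tpbpa was at 0 in all 3 media. Of 11 primitive and visceral endoderm markers, 0 were called in L-Pro/LIF and 8 were higher in F/A. The sum was 125 and 86.5 CPM in F/A against 12.7 and 24.7 CPM in FBS/LIF and 17.7 in both L-Pro/LIF libraries. The F/A sum was led by Cubn (35.1 CPM) and Foxa2 (22.0 CPM). Ttr, Afp, Sox7 and Apoa1 were at 1.49, 0.567, 0.329 and 0.152 CPM there. Ttr and Afp had means of at most 0.131 and 0.0276 CPM in the other media. They could pass the filter on low counts only through F/A, where they were highest, so the count of 8 is a description. Of 10 fibroblast markers, 7 were higher with L-Pro/LIF and 5 with F/A, and 0 were lower in either. Of all genes, 13.7% were higher with L-Pro/LIF and 24.4% with F/A. The fibroblast sums were 45.0 and 48.4 CPM with L-Pro/LIF and 43.6 and 32.0 CPM with F/A. In FBS/LIF they were 24.8 and 26.2 CPM. Of 7 epidermis markers, 1 was higher and 1 lower in L-Pro/LIF, and 2 higher and 1 lower in F/A. Krt5, the type II chain of basal epidermis, was at 0 in F/A, L-Pro/LIF and FBS/LIF. The part of such cells in the keratin values was not tested.

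In 2i/LIF, where the keratins fell and 30.4% of all genes were called, 0 endoderm markers were higher and 4 of 11 were lower, with sums of 3.23 and 3.48 CPM. There 2 of 10 fibroblast markers were higher and 5 lower, and 3 of 10 trophectoderm markers were higher and 2 lower. Their part in the fall was not tested either.

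The 4 single libraries give the same genes at other times, with counts from another extraction and no test. At day 0 Krt42 had 1147 counts (34.2 CPM, 95% Poisson interval 32.2 to 36.2). Krt8 had 106 counts at day 0 (3.16 CPM, interval 2.59 to 3.82), Krt18 115, Krt19 126, Krt17 284 and Krt7 48. The day 0 level of Krt8 was thus far below the 91.9 to 126 CPM of FBS/LIF and VitC/LIF in the replicated experiment, and the medium, vitamin C dose, extraction and labelled population differ between them. These intervals cover counting error only.

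In L-Pro at day 5 Krt8 reached 27623 counts (700 CPM, interval 691 to 708), 222-fold higher than at day 0. Krt18 was 100-fold higher and Krt19 47.4-fold higher, with 13560 and 7029 counts. Krt7 was 3.51-fold higher, at 198 counts. Krt17 was 2.24-fold lower, at 149 counts, and Krt42 was 30.7-fold lower, at 44 counts. Among 15328 genes with at least 20 counts in 1 of the 2 libraries, 37.4% differed by at least 2-fold (20.7% higher, 16.7% lower).

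In F/A there was 1 library at each time, so differences between days are differences between single libraries. At day 3 Krt42 had 4 counts and Krt17 had 6, 314-fold and 51.8-fold lower than at day 0. Krt8 was then 10.6-fold higher, at 1225 counts, Krt18 4.82-fold higher, at 606, and Krt19 1.19-fold higher, at 164 (4.47 CPM, interval 3.81 to 5.21, against 3.75 CPM, interval 3.13 to 4.47). In that comparison 33.3% of genes differed by at least 2-fold (18.8% higher, 14.5% lower). At day 5 Krt8 reached 13295 counts and Krt18 5169, 128-fold and 45.9-fold above day 0, and Krt19 reached 6629 counts, 53.8-fold above day 0. Krt42 had no count at day 5, at least 374-fold lower than at day 0 with 3 counts as the limit, and Krt17 had 15. Here 39.1% of genes differed by at least 2-fold (21.4% higher, 17.7% lower). Krt7, with 48 counts at day 0, had 83 at day 3 (1.58-fold higher) and 84 at day 5 (1.79-fold higher). In the replicated experiment Krt7 went the other way, below FBS/LIF in F/A (log2 fold change -1.05). The reference medium, extraction and labelled population differ between them.

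At day 5 against day 3 of F/A, Krt19 was 45.2-fold higher, Krt8 12.1-fold and Krt18 9.53-fold, and Krt7 differed 1.13-fold, from 83 to 84 counts at unequal depth. In that comparison 22.2% of genes differed by at least 2-fold (10.5% higher, 11.7% lower). The ratio of Krt19 to Krt18 counts, 1.10 at day 0, was 0.271 at day 3 and 1.28 at day 5 in F/A, and 0.518 in L-Pro at day 5. Dsp went from 1136 to 8105 counts between the F/A libraries and Vim from 4406 to 39761.

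**Figure D4:**
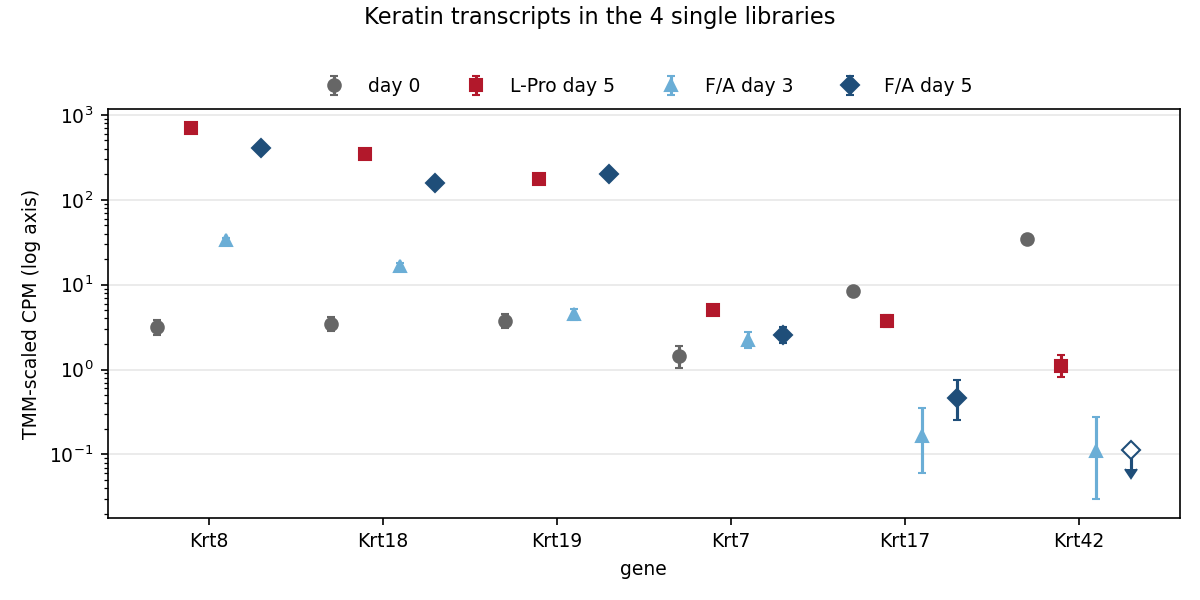
TMM-scaled CPM (log axis) of each keratin in the 4 single libraries, with exact 95% Poisson intervals that cover counting error only; the open diamond with an arrow is the upper limit for Krt42 at day 5 of F/A, which had no count. Krt42 was already at 4 counts at day 3 of F/A, when Krt19 lay close to its day 0 level.

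Desmosome genes with at least 20 counts were compared with day 0. In L-Pro at day 5, 6 of 9 were at least 2-fold higher and 0 lower (all genes: 20.7% higher, 16.7% lower). In F/A at day 3, 3 of 9 were higher and 3 lower (all genes: 18.8% and 14.5%). In F/A at day 5, 3 of 8 were higher and 1 lower (all genes: 21.4% and 17.7%). Dsc2 had 31 counts at day 0, 1521 in L-Pro at day 5, 239 in F/A at day 3 and 1002 in F/A at day 5. Perp had 283, 8627, 1803 and 6875 counts in the same libraries. Perp is also on the epidermis list and made up most of its sum in the 3 later libraries, with 8.43 CPM at day 0, 219 in L-Pro at day 5, and 49.1 and 209 in F/A at day 3 and day 5. The other 11 epidermis markers together were at 21.3, 16.4, 8.55 and 14.2 CPM in that order, highest at day 0. Trophectoderm markers stood at 118, 107, 41.7 and 136 CPM, endoderm markers at 5.72, 26.4, 16.2 and 68.3 CPM, and fibroblast markers at 72.3, 107, 51.5 and 39.5 CPM. Their part in the keratin values was not tested.

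Shared sequence could affect these values. In a later annotation, 26.9% of the 50-base windows of Krt8 transcripts also occur in the pseudogene Krt8-ps, which the files do not list, so fragments from that copy could not be told apart from Krt8. For Krt17, 3.66% of windows also occur in Krt14, and for Krt42 0.234% occur in Krt17. For Krt7, fragments that hit this gene alone were 57.1% and 79.4% of the estimated counts in F/A, 68.2% and 75.0% in 2i/LIF, and 85.5% to 97.5% in the other 6 libraries, so its low values in F/A and 2i/LIF rest least on such fragments. The strand setting is not stated, so fragments from an overlapping gene on the other strand could be included.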

How the data were processed

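The members and gene lists were chosen with earlier results of these data known. For the 10 replicated libraries the deposited files, per the file headers, give the natural log of an FPKM value per gene, an effective length, unique hits (counts of fragments hitting 1 gene) and mapped totals. For the 4 single libraries the authors deposited raw counts. The submitters' processing notes name CASAVA, TopHat2 2.0.13, Bowtie, HTSeq 0.6.1p1, DESeq and mm9 with no role; the maker of the natural log files is not given in the sources used here. Estimated counts were recomputed from the natural log, effective length and mapped total and rounded.

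Genes passing filterByExpr (16033) were tested with edgeR 4.0.16 in R 4.3.3: TMM scaling, the quasi-likelihood F test, a joint fit of the 10 libraries with medium as the factor, 2-sided, Benjamini-Hochberg adjusted p under 0.05. SE was obtained by dividing the size of the log2 fold change by √F. The fit had 5 residual degrees of freedom and a common biological coefficient of variation of 0.238. Scripts were tested on simulated data. In F/A against L-Pro/LIF the planned tests of Krt8 and Krt42 are not reported, since both were selected on these media. The single libraries have no replicates and no test. Alternatives were unique hits, DESeq2 size factors, no filter, the replicate block, leaving out each library, DESeq2 1.42.0 and limma 3.58.1 on log2(FPKM + 0.1), and total-count scaling for the single libraries.

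Genes named were the 6 members, up to 3 called and 2 uncalled genes per list and comparison, other keratins with a mean of 1 CPM, and the genes with the highest r. Of these, the text gives a selection. Symbols came from GENCODE vM21 by identifier (32919 matched).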

Additional observations from a re-analysis of the deposited data

How the results depend on the processing

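The 6 falls in 2i/LIF stayed past the threshold under unique hits, other size factors, no filter, the replicate block, DESeq2 and limma. In F/A against L-Pro/LIF, Krt8, given without a test, had a log2 fold change of -0.56 by DESeq2. Its leave-one-out fits ranged from -0.92 to -0.31. The Krt18 call there was lost by limma (-0.83) and in 3 of 4 leave-one-out fits (range -1.38 to -0.72). Krt19, at 0.00 there, took a negative sign with DESeq2 size factors (-0.01), no filter (-0.04), the DESeq2 test (-0.01) and in leave-one-out fits (range -0.37 to 0.22), and was 0.41 by limma on FPKM. Krt7 in VitC/LIF had a log2 fold change of 0.10, and of -0.11 to 0.30 in leave-one-out fits, the lowest without VitC/LIF replicate 2. The described Krt7 change in L-Pro/LIF was 1.65 from unique hits, 1.49 to 1.60 in leave-one-out fits and 2.03 by limma, whose FPKM follow an effective length of 3349 and 1959 bases in the 2 libraries. In F/A against FBS/LIF it was -1.39 from unique hits, -1.13 without the filter, -0.62 by limma and -1.11 to -1.05 in leave-one-out fits. Krt8 in L-Pro/LIF was 2.19 without FBS/LIF replicate 1. Krt19 by limma was 2.35 in L-Pro/LIF, against 2.76 in F/A. Leaving out 1 library, the F/A changes ranged from 1.17 to 1.78 for Krt8, -7.04 to -5.73 for Krt17, 0.55 to 1.21 for Krt18 and 1.90 to 2.49 for Krt19. Except where stated, the cause was not tested.

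Calls among the linked lists numbered 1 in VitC/LIF, 2 from unique hits, 3 by DESeq2 and 0 in each leave-one-out fit, and 18 in F/A against L-Pro/LIF, 9 without either L-Pro/LIF library and up to 25 without F/A replicate 2. Calls over all genes moved with single libraries, so the background shares do too: 108 in VitC/LIF (6 to 12 in leave-one-out fits, 243 from unique hits, 263 without the filter, 432 by DESeq2, 62 by limma), 3529 in F/A against L-Pro/LIF (752 to 6296), 3853 in L-Pro/LIF (2002 to 2238), 4867 in 2i/LIF (2932 without 2i/LIF replicate 1) and 7440 in F/A (4345 without FBS/LIF replicate 1).

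With the replicate number as a block, Krt19 in F/A against L-Pro/LIF was -0.01. The members' calls stayed at 0 in VitC/LIF and 6 in 2i/LIF. In F/A against L-Pro/LIF, where Krt8 and Krt42 are given without a test, Krt7, Krt17 and Krt18 were again called. The numbers 1 and 2 do not pair the samples by label. Deviations of same-numbered libraries correlated between 0.0985 and 0.518 over 10 pairs of media, and replicate 2 libraries had effective lengths 39.41 to 54.13 bases longer than FBS/LIF replicate 1.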
